A study of Homo sapiens with 6 samples.

Results

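The genes described here are the machinery of autophagy in MDA-MB-453 cells, a set of 40 genes chosen by name from the 33451 genes listed in the deposited count table. All 40 were listed. MDA-MB-453 is a line established from human breast cancer. It was grown for 5 days either with 100 nM 25(OH)D, the main circulating form of vitamin D, or with alcohol, its solvent, as the control. Messenger RNA of 3 libraries in each group was sequenced, and all 6 libraries came from the unmodified line, for which the labels name no knockdown or added gene. The sources call the 3 libraries of a group biological replicates without saying how the cultures were separated, so p-values measure the spread between these libraries.

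Autophagy delivers cytoplasm, damaged organelles and protein aggregates to lysosomes for digestion. The ULK kinase complex starts the process when nutrients or energy fall short, and a class III PI3-kinase complex then marks the membrane with the lipid PI3P. ATG9 vesicles and the lipid transfer proteins ATG2A and ATG2B supply membrane to the growing phagophore. A pair of conjugation systems, which resemble ubiquitination, attach small proteins of the ATG8 family (the LC3 and GABARAP proteins) to the lipid phosphatidylethanolamine, and cargo receptors hold cargo to these proteins. Much of the pathway is controlled by phosphorylation, lipidation and protein turnover, which mRNA levels do not measure.

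Of the 40 genes, 39 passed the filter on low counts and were tested, and MAP1LC3A did not. In cells cultured with 25(OH)D, 9 of the 39 rose, 4 fell and 26 did not pass the test, where passing means an adjusted p under 0.05 in the quasi-likelihood test of edgeR with Benjamini-Hochberg adjustment over all genes tested. Those 13 are 33.3% of the members tested, and over all 18183 genes tested 33.8% passed, 17.3% as higher and 16.5% as lower, so the share among autophagy genes was near that of genes in general. No member passed the limits of an absolute log2 fold change over 1 with an unadjusted p under 0.05, which 4.02% of all genes passed as higher and 2.63% as lower. The log2 fold changes of the members ran from -0.45 (ULK1) to 0.77 (GABARAPL1, which did not pass the test), with a median of 0.0545 beside -0.0113 over all genes. An absolute log2 fold change over 0.5 was seen in 3 members (7.69%) and in 21.4% of all genes. In CPM (counts divided by the scaled total of each library), the groups did not overlap for 21 of the 39 (53.8%), beside 45.7% of all genes. Of the 13 calls, 7 stood in all 15 alternative settings (ULK1, BECN1, AMBRA1, ATG10, WIPI1, TAX1BP1 and VMP1), and ATG14, ATG4A and ATG4D, which lost theirs most often, are described with their values below. ATG16L2 and OPTN lost theirs with log2(RPKM + 1) without a filter (adjusted p = 0.0799 and 0.071). Leaving out replicate 2 of the 25(OH)D libraries lowered the number that fell from 4 to 2, through the loss of ATG14 (adjusted p = 0.135) and CALCOCO2 (adjusted p = 0.0527).

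**Figure D1:**
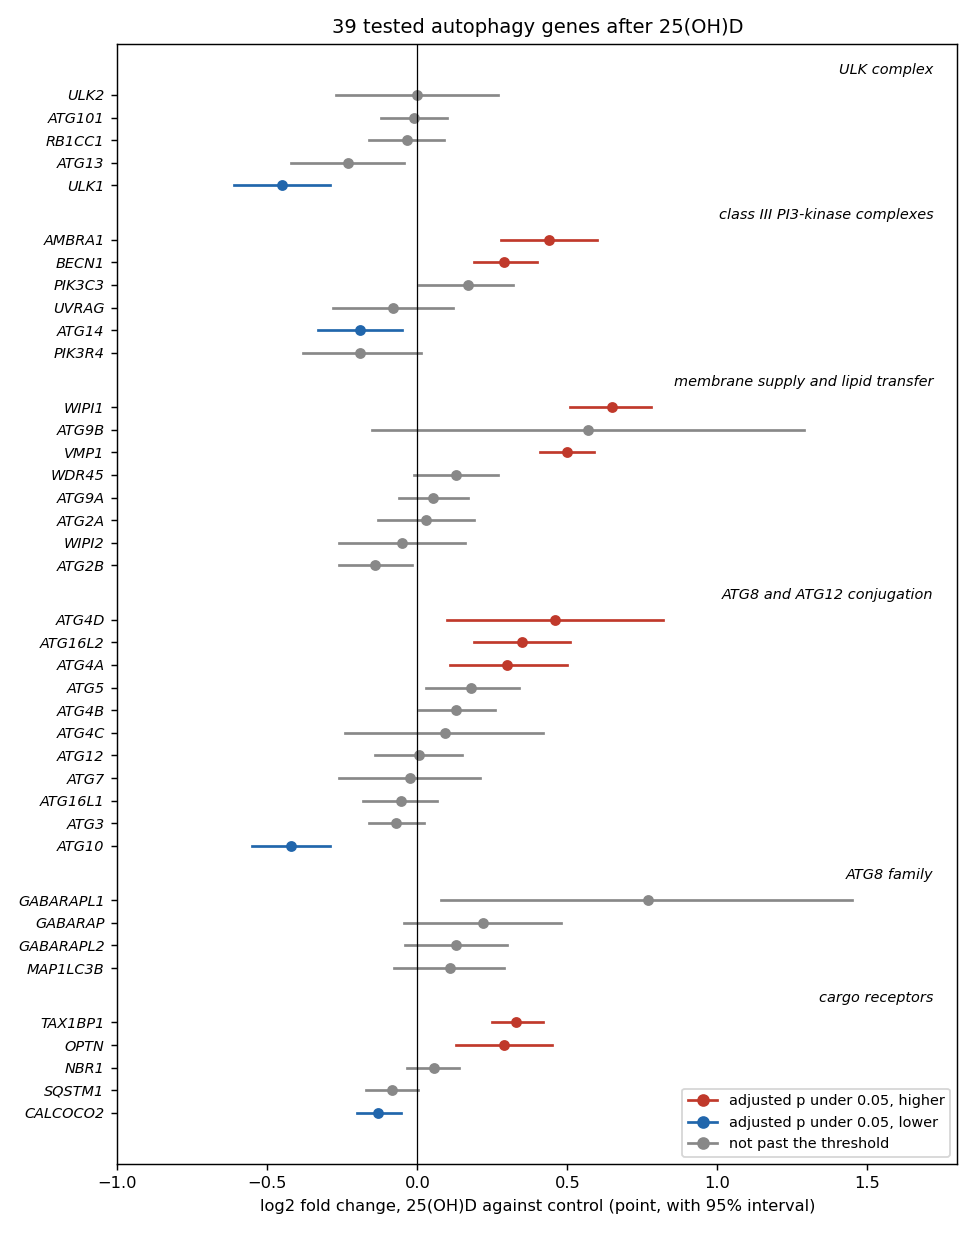
Log2 fold change of each tested autophagy gene, 25(OH)D against control, grouped by role on the vertical axis. Points are estimates of edgeR with 95% confidence intervals as bars, red for the 9 that rose, blue for the 4 that fell and grey for the 26 that did not pass the test. The widest intervals belong to the low-count genes ATG9B and GABARAPL1.

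The promoters of the members with the largest rises and falls among those that passed the test are printed first, followed by those of ATG3 and ATG14, in which an E-box was found. Each holds 250 bases before and 50 bases after the RefSeq start (GRCh38.p14), written 5′ to 3′ on the strand of the gene. In the next 4 sequences, those of WIPI1 (chr17:68457447-68457746, minus strand), VMP1 (chr17:59707404-59707703, plus strand), ULK1 (chr12:131894372-131894671, plus strand) and ATG10 (chr5:81971773-81972072, plus strand), capitals mark the 50 bases after the start.
WIPI1: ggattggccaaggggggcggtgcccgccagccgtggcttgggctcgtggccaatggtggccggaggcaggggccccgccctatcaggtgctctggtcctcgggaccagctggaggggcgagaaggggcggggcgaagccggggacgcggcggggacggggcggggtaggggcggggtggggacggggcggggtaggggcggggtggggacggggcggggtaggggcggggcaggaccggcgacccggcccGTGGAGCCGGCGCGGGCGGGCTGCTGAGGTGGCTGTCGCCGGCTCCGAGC
VMP1: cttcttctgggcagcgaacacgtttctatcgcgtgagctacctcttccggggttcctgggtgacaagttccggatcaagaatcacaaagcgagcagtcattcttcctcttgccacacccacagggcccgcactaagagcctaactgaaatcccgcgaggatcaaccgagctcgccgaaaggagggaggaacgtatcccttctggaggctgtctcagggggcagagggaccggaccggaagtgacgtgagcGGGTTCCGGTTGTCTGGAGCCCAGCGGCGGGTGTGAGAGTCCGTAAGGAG
ULK1: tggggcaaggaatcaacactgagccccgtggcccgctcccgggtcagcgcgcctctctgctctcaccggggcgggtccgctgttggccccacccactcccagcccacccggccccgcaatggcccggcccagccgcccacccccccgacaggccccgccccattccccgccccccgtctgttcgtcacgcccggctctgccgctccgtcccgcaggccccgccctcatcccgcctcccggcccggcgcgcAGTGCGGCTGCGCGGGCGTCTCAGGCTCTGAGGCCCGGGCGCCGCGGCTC
ATG10: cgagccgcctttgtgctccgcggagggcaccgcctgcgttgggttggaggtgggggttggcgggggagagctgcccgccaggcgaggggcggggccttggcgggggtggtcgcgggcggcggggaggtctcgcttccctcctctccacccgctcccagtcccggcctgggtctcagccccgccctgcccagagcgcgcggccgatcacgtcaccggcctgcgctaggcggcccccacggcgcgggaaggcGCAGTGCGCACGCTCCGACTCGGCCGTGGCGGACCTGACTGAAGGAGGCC
In those of ATG3 (chr3:112561913-112562212, minus strand) and ATG14 (chr14:55411781-55412080, minus strand), capitals mark CACGTG, the E-box core bound by TFEB, a regulator of autophagy and lysosomal genes, and by other E-box factors.
ATG3: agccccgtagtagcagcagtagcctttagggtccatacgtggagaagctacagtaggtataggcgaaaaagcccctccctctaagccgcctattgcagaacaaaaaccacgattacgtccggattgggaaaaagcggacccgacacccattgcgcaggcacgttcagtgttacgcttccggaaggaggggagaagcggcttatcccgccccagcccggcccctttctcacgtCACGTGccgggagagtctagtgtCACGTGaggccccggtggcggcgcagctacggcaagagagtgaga
ATG14: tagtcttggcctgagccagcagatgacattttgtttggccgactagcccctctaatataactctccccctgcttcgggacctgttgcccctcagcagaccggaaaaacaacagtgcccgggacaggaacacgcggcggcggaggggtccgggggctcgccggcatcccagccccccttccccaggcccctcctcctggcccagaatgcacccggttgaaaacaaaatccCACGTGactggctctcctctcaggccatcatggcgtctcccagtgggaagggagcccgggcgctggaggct
RefSeq promoters were matched for 36 of the 40 members, all but RB1CC1, UVRAG, ATG4D and MAP1LC3A. CACGTG, which reads the same on both strands, was found in these windows in 2 of the 36 (5.56%) and in 7.26% of 35116 promoters of the same length. ATG3 held it on both sides of the start and ATG14 before the start. TGATGNAA, an element of the type bound by ATF4, was found on either strand in 0 of 36 and in 3.62% of all promoters. The DR3 VDR element, the paired repeat bound by the vitamin D receptor, was found in 0 of 36 and in 0.074% of all promoters. No match says only that these letters are not in this window, and these counts describe sequence, not binding.

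The libraries held between 33268860 and 40928176 counts, and a count of 3 was worth between 0.072 and 0.0921 CPM. Mitochondrial genes took 7.85% to 7.99% of each control library and 8.89% to 9.24% of each 25(OH)D library, and their part in the values below was not tested. The markers of the line FOXA1, GATA3, ERBB2, FGFR4, KRT8, KRT18 and KRT19 were all detected, each with at least 2723 counts in every library. Several did not overlap between groups, with GATA3 at 258 to 264 CPM in control and 147 to 154 CPM in 25(OH)D libraries, FOXA1 at 112 to 120.2 and 77.5 to 88.4 CPM, and KRT19 at 765 to 817 and 587 to 613 CPM. KRT8 was at 1636 to 1693 and 1825 to 1869 CPM, KRT18 at 523 to 549 and 568 to 583 CPM, and ERBB2 at 348 to 351 and 396 to 416 CPM, while FGFR4 overlapped, and their part in the members' values was not tested. ESR1 and PGR, which this line lacks, summed to at most 0.312 CPM in any library. Of 3 leukocyte markers, PTPRC and CD3E held at most 6 counts in any library, while CD68, which encodes a lysosomal membrane protein, held 4.01 to 5.58 CPM in control and 13.0 to 19.3 CPM in 25(OH)D libraries. The 3 fibroblast markers summed to 36.5 to 38.8 CPM in control and 32.0 to 34.6 CPM in 25(OH)D libraries, nearly all of it from COL1A1, and the 2 endothelial markers to at most 0.489 CPM. In these bulk samples, fewer cells expressing a gene and less of its RNA per cell cannot be told apart.

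Of the 5 genes of the ULK complex, 0 rose and 1 fell. ULK1, the kinase that starts autophagy, lies at chr12:131894651-131923167 on GRCh38 and held 22.5, 22.8 and 25.6 CPM in the control libraries against 17.2, 16.9 and 17.7 CPM in the 25(OH)D libraries. Every 25(OH)D library lay below every control library. The mean was 23.6 ± 1.75 CPM in control and 17.3 ± 0.417 CPM with 25(OH)D (SD, n = 3, as for all values given with ±). ULK1 thus fell, with a log2 fold change of -0.45 (SE 0.0752, 95% CI -0.61 to -0.29, edgeR adjusted p = 2.95e-04). ULK2, its close relative, held 9.8, 8.88 and 8.94 CPM in control and 8.85, 7.8 and 11.0 CPM in 25(OH)D libraries, and the groups overlapped (95% CI of the log2 fold change -0.27 to 0.27, edgeR adjusted p = 0.999). In RPKM, which are also scaled to gene length, the ratio of ULK1 to ULK2 was 3.33 ± 0.372 in control and 2.46 ± 0.366 in 25(OH)D libraries, without overlap (exact permutation test, two-sided p = 0.1). That is the smallest p that 3 libraries against 3 can give, and it is the raw value among 8 such ratios.

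ATG13, the regulatory subunit that ties ULK1 to the rest of the complex, held 13.7, 15.4 and 13.3 CPM in control and 12.1, 12.2 and 11.7 CPM in 25(OH)D libraries. The groups did not overlap, yet the gene did not pass the test (log2 fold change -0.23, 95% CI -0.42 to -0.0439, edgeR adjusted p = 0.0558). It passed with library sizes alone (adjusted p = 0.0265) and with upper-quartile factors (adjusted p = 0.0259). ATG101, which stabilises ATG13, and RB1CC1, the large scaffold also known as FIP200, had log2 fold changes of -0.0124 and -0.0343, with edgeR adjusted p = 0.881 and 0.689. Their intervals, -0.12 to 0.0976 and -0.16 to 0.0878, span 0.

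Among the 6 genes of the class III PI3-kinase complexes, 2 rose and 1 fell. BECN1, which encodes Beclin 1, the regulatory subunit on which these complexes assemble, lies at chr17:42810134-42833350 and held 59.6, 64.9 and 60.9 CPM in control against 74.9, 75.7 and 76.8 CPM in 25(OH)D libraries. The groups did not overlap, and the mean rose from 61.8 ± 2.75 to 75.8 ± 0.931 CPM (log2 fold change 0.29, 95% CI 0.19 to 0.40, edgeR adjusted p = 3.59e-04). AMBRA1, a scaffold that binds Beclin 1 and serves as a receptor of a ubiquitin ligase, lies at chr11:46396414-46594125 and held 19.4, 19.2 and 17.8 CPM in control against 24.7, 27.7 and 24.2 CPM in 25(OH)D libraries. It rose from 18.8 ± 0.875 to 25.5 ± 1.89 CPM (log2 fold change 0.44, 95% CI 0.28 to 0.60, edgeR adjusted p = 4.02e-04), the largest change of the 6.

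ATG14, the subunit that directs the complex to the site of autophagosome formation, lies at chr14:55366392-55411858 and held 40.2, 40.9 and 40.3 CPM in control against 33.2, 34.6 and 38.7 CPM in 25(OH)D libraries. Its groups did not overlap, although replicate 3 of 25(OH)D lay close to the control libraries. The log2 fold change was -0.19 (SE 0.065, 95% CI -0.33 to -0.0496, edgeR adjusted p = 0.037). The call stood without 25(OH)D replicate 3 (adjusted p = 0.008) and was lost without any other single library. Without 25(OH)D replicate 1 the adjusted p was 0.165, without 25(OH)D replicate 2 it was 0.135, and without control replicates 1, 2 or 3 it was 0.0698, 0.119 or 0.0742. UVRAG, the subunit that takes the place of ATG14 in the endosomal form of the complex, overlapped between groups (log2 fold change -0.082, edgeR adjusted p = 0.547). PIK3C3, the lipid kinase itself, had a log2 fold change of 0.17 (95% CI 0.00682 to 0.32, edgeR adjusted p = 0.103, or 0.0273 without 25(OH)D replicate 3), and its partner PIK3R4, which holds the kinase in place, had one of -0.19 (edgeR adjusted p = 0.142).

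The largest rises among the members that passed the test were in genes that shape or read the phagophore membrane, where 2 of 8 rose and 0 fell. WIPI1, a propeller protein that binds PI3P and the first of its family, lies at chr17:68420948-68457513 and held 22.3, 23.1 and 24.0 CPM in control against 35.0, 36.2 and 37.6 CPM in 25(OH)D libraries. The mean rose 1.57-fold, from 23.1 ± 0.854 to 36.2 ± 1.3 CPM, and the groups did not overlap (log2 fold change 0.65, SE 0.0633, 95% CI 0.51 to 0.78, edgeR adjusted p = 1.86e-06). WIPI2, the relative that recruits ATG16L1, held 11.1, 11.6 and 10.1 CPM in control and 10.4, 9.86 and 11.5 CPM in 25(OH)D libraries, with overlap (95% CI of the log2 fold change -0.26 to 0.16, edgeR adjusted p = 0.739). Per length, WIPI1 stood above WIPI2 in every library, by 5.29, 5.23 and 6.29 times in RPKM in control and by 8.84, 9.69 and 8.64 times in 25(OH)D libraries (exact permutation test, two-sided p = 0.1). WDR45, also known as WIPI4 and a partner of ATG2 proteins, held 20.0 ± 0.0781 CPM in control and 21.8 ± 0.302 CPM in 25(OH)D libraries, without overlap, but did not pass the test (edgeR adjusted p = 0.152).

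VMP1, a membrane protein of the endoplasmic reticulum that moves lipids between the leaflets of the bilayer, lies at chr17:59707192-59842255. Its level was 131, 131 and 129 CPM in control and 192, 183 and 177 CPM in 25(OH)D libraries. The rise of 1.41-fold, from 130.2 ± 0.79 to 184 ± 7.61 CPM, had the smallest p of all members (log2 fold change 0.50, SE 0.042, edgeR adjusted p = 4.04e-07). ATG2A and ATG2B, the bridges through which lipids flow into the phagophore, had log2 fold changes of 0.0274 (edgeR adjusted p = 0.815) and -0.14 (95% CI -0.26 to -0.0187, edgeR adjusted p = 0.0721). The groups of ATG2B did not overlap, and it passed with library sizes alone (adjusted p = 0.0232) and with upper-quartile factors (adjusted p = 0.0226), while the sign of ATG2A turned under other scalings. ATG9A, the scramblase carried by ATG9 vesicles, overlapped between groups at 45.1 ± 1.35 and 46.8 ± 1.23 CPM (edgeR adjusted p = 0.491). Its relative ATG9B was low, with 32, 22 and 22 counts in control and 42, 28 and 32 counts in 25(OH)D libraries, and its interval ran from -0.15 to 1.29 (edgeR adjusted p = 0.221).

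**Figure D2:**
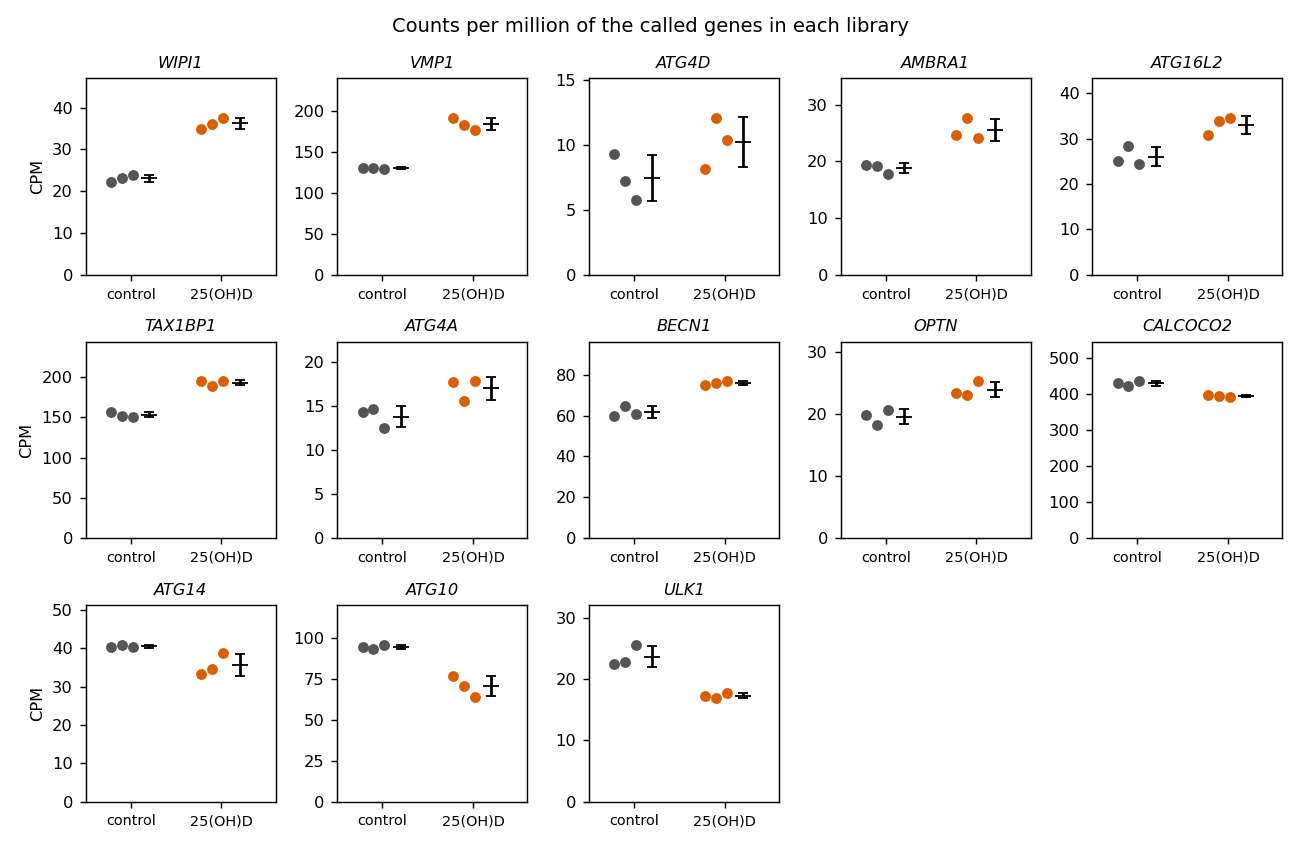
CPM in each library for the 13 autophagy genes that passed the test, with control and 25(OH)D libraries as separate points on the horizontal axis and group means with SD (n = 3 each). In ATG4D the groups overlap, at 5.79 to 9.29 CPM in control and 8.19 to 12.1 CPM in 25(OH)D libraries, and in the other 12 panels they do not.

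Of the 11 genes of the conjugation systems, 3 rose and 1 fell. The call that stood in all 15 alternatives was that of ATG10, the E2 enzyme that joins ATG12 to ATG5. ATG10 lies at chr5:81972025-82276857 and held 94.5, 93.3 and 96.1 CPM in control against 76.9, 70.9 and 64.3 CPM in 25(OH)D libraries. The groups did not overlap, and the mean fell from 94.6 ± 1.37 to 70.7 ± 6.27 CPM (log2 fold change -0.42, SE 0.0591, edgeR adjusted p = 6.72e-05). ATG16L2, a relative of the core scaffold ATG16L1, lies at chr11:72814308-72843674 and held 25.1, 28.4 and 24.5 CPM in control against 30.8, 33.8 and 34.6 CPM in 25(OH)D libraries. It rose without overlap (log2 fold change 0.35, SE 0.0739, edgeR adjusted p = 0.00205). ATG16L1, which positions the conjugation on the membrane, overlapped between groups (log2 fold change -0.0561, 95% CI -0.18 to 0.0657, edgeR adjusted p = 0.491). The ratio of ATG16L2 to ATG16L1 in RPKM was 0.397 ± 0.0282 in control and 0.526 ± 0.044 in 25(OH)D libraries (exact permutation test, two-sided p = 0.1).

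The ATG4 proteases trim newly made ATG8 proteins and release them from lipid, and 2 of the 4 rose. ATG4A (chrX:108091668-108154671) held 14.3, 14.6 and 12.5 CPM in control against 17.7, 15.5 and 17.8 CPM in 25(OH)D libraries. These groups did not overlap, and the log2 fold change was 0.30 (SE 0.0905, edgeR adjusted p = 0.0189). The call was lost in 6 of 15 alternatives. Without 25(OH)D replicates 1 or 3, or control replicate 3, the adjusted p was 0.0639, 0.0511 or 0.0702. With RPKM on a log2 scale the limma adjusted p was 0.067 with 0.1 added, 0.0696 with 1 added and 0.134 with 1 added and no filter. ATG4D (chr19:10543895-10553418) held 9.29, 7.22 and 5.79 CPM in control against 8.19, 12.1 and 10.4 CPM in 25(OH)D libraries. Control replicate 1 lay above 25(OH)D replicate 1, so this rise did not separate the groups (log2 fold change 0.46, SE 0.167, edgeR adjusted p = 0.0472), and the call was lost in 10 of 15 alternatives. They include leaving out 25(OH)D replicates 2 or 3 (adjusted p = 0.209 or 0.0756) and control replicates 2 or 3 (adjusted p = 0.124 or 0.154). ATG4B, the most active of the family, was higher in every 25(OH)D library (29.7 ± 0.242 against 32.5 ± 0.839 CPM) without passing the test (edgeR adjusted p = 0.104), and ATG4C, at 4.22 ± 0.567 and 4.51 ± 0.567 CPM, overlapped (edgeR adjusted p = 0.689).

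The other conjugation enzymes and their substrate gave smaller values. ATG7, the E1 shared by both systems, had a log2 fold change of -0.0254 (95% CI -0.26 to 0.21, edgeR adjusted p = 0.886). ATG3, the E2 that acts on ATG8 proteins, had one of -0.0708 (95% CI -0.16 to 0.0212, edgeR adjusted p = 0.232) and passed only with library sizes alone (adjusted p = 0.0451). ATG12, the ubiquitin-like protein, had one of 0.00548 (95% CI -0.14 to 0.15, edgeR adjusted p = 0.962). ATG5, its acceptor, held 24.7, 22.2 and 26.2 CPM in control and 27.7, 27.2 and 28.1 CPM in 25(OH)D libraries, which did not overlap. It did not pass the test (log2 fold change 0.18, edgeR adjusted p = 0.0637), except without control replicate 3 (adjusted p = 0.0259).

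None of the ATG8 genes passed the test. The 4 tested had positive log2 fold changes, with a median of 0.174, and over all 18183 genes tested 8859 were positive. MAP1LC3B, which encodes the LC3 protein used most often as a marker of autophagosomes, held 11.7, 12.0 and 11.9 CPM in control and 13.3, 11.9 and 13.1 CPM in 25(OH)D libraries. The groups overlapped, and its log2 fold change of 0.11 had a 95% CI of -0.0776 to 0.29 (edgeR adjusted p = 0.378). GABARAP and GABARAPL2, of the other branch of the family, had log2 fold changes of 0.22 (edgeR adjusted p = 0.195) and 0.13 (edgeR adjusted p = 0.24), both with overlap. GABARAPL1 was low, with 24, 20 and 30 counts in control and 34, 48 and 34 counts in 25(OH)D libraries. Its groups did not overlap and its estimate was the largest of all members, but also imprecise (log2 fold change 0.77, SE 0.319, 95% CI 0.0795 to 1.45, edgeR adjusted p = 0.0817). MAP1LC3A held 4, 0 and 0 counts in control and 4, 22 and 7 counts in 25(OH)D libraries, most of them in 1 library, and was not tested.

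Set side by side per length, GABARAPL2 had the highest RPKM of the ATG8 genes in both groups, at a mean of 6.28 RPKM in control and 6.66 RPKM in 25(OH)D libraries. GABARAP followed at 3.69 and 4.16 RPKM and MAP1LC3B at 2.26 and 2.36 RPKM. Of the exon bases of GABARAP, 30.5% lie in CTD-2545G14.7 on the same strand and 25.2% in CTD-2545G14.6 on the opposite strand. RPKM divide by the full length, and the part of these shared bases in this order, in the LC3 share and in the summed level was not tested. The LC3 genes made up 18.5%, 18.7% and 18.0% of the summed RPKM of the family in control and 18.9%, 17.0% and 20.2% in 25(OH)D libraries. These shares overlapped, and their means of 18.4% ± 0.386 and 18.7% ± 1.59 differed by 0.305 percentage points (exact permutation test, two-sided p = 0.8). The summed level was 12.4, 12.3 and 12.6 RPKM in control and 13.3, 15.0 and 12.5 RPKM in 25(OH)D libraries, also with overlap (exact permutation test, two-sided p = 0.2).

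All 5 cargo receptors separated the groups, 3 of them as higher and 2 as lower, and 3 of the 5 passed the test. Over all genes, 45.7% did not overlap between groups and 33.8% passed. TAX1BP1, a receptor that binds ubiquitinated cargo, aggregates among it, lies at chr7:27739331-27844564. It held 157, 152 and 151 CPM in control against 195, 189.6 and 195 CPM in 25(OH)D libraries, and rose from 153 ± 3.15 to 193 ± 3.14 CPM (log2 fold change 0.33, SE 0.0387, edgeR adjusted p = 1.06e-05). OPTN (chr10:13099449-13138308), a receptor for ubiquitinated mitochondria and bacteria, held 19.9, 18.2 and 20.6 CPM in control against 23.4, 23.1 and 25.3 CPM in 25(OH)D libraries. It rose by a log2 fold change of 0.29 (SE 0.0742, edgeR adjusted p = 0.00757). CALCOCO2 (chr17:48830988-48866522), which encodes NDP52, a receptor for bacteria and mitochondria, held 429, 423 and 435 CPM in control against 396, 394 and 390.2 CPM in 25(OH)D libraries. It fell by a small but even margin, from 429 ± 5.59 to 393 ± 2.92 CPM (log2 fold change -0.13, SE 0.0336, edgeR adjusted p = 0.00983).

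SQSTM1, which encodes p62, the best known receptor of ubiquitinated cargo, held 178, 174 and 171 CPM in control and 164, 159 and 169.9 CPM in 25(OH)D libraries. The groups did not overlap, but the log2 fold change of -0.0859 (95% CI -0.17 to 0.00134) did not pass the test (edgeR adjusted p = 0.124). It passed in 4 of the 15 alternatives, those with library sizes alone or upper-quartile factors and the filtered RPKM values on a log scale (adjusted p between 0.0204 and 0.037). NBR1, a receptor that works with p62, was higher in every 25(OH)D library, at 113 ± 2.39 against 118 ± 1.07 CPM, and did not pass the test (log2 fold change 0.0545, edgeR adjusted p = 0.342).

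**Figure D3:**
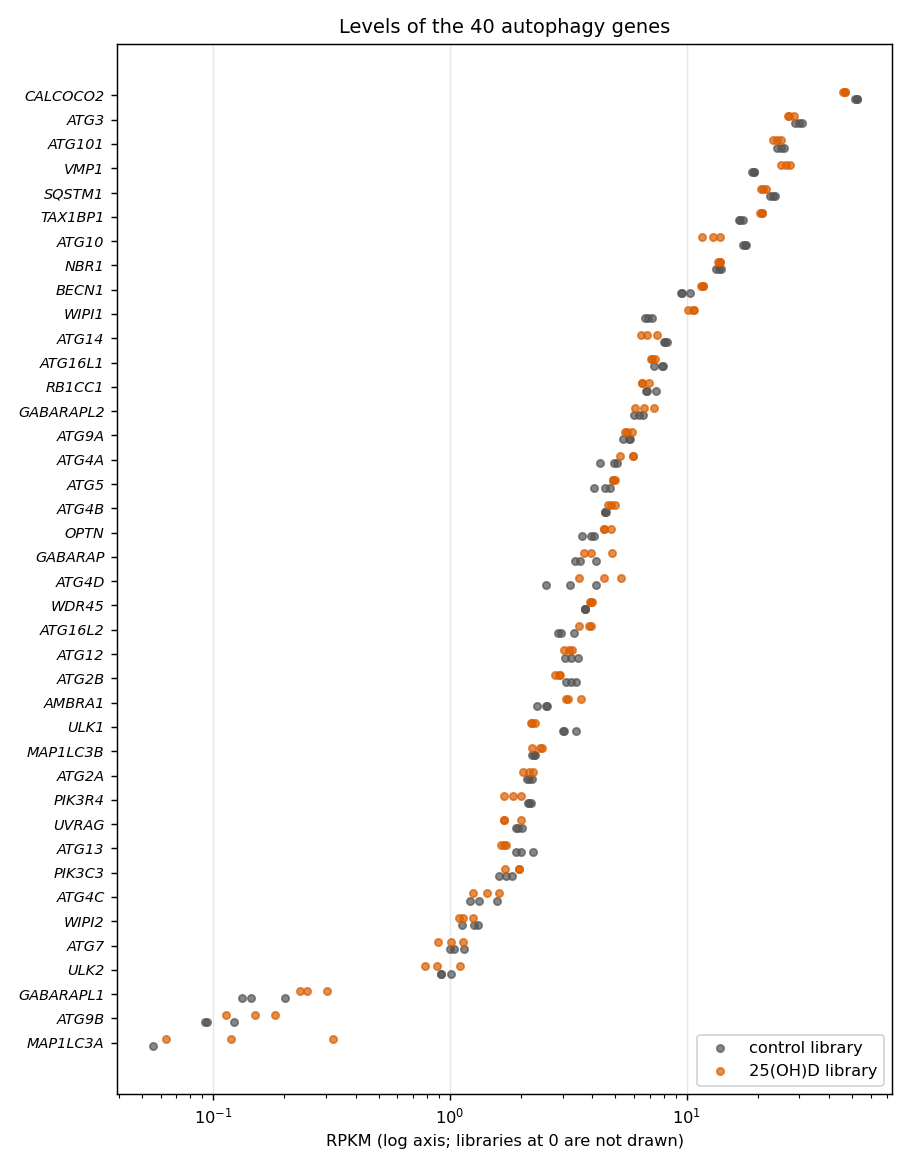
RPKM of the 40 autophagy genes in each library on a logarithmic axis, ordered by the mean over the 6 libraries. CALCOCO2 stands at the top with a mean of 49.4 RPKM, and GABARAPL1, ATG9B and MAP1LC3A lie at the bottom with means of 0.21, 0.126 and 0.0934 RPKM, below ULK2 at 0.936 RPKM.

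Per length, CALCOCO2 led with a mean of 49.4 RPKM over the 6 libraries, above ATG3 at 28.6 RPKM and ATG101 at 24.6 RPKM, and these first 3 did not overlap in range. VMP1 (22.7 RPKM), SQSTM1 (22.1 RPKM), TAX1BP1 (18.9 RPKM), ATG10 (15.2 RPKM) and NBR1 (13.7 RPKM) followed, each overlapping the gene before it. The order differed between groups, since SQSTM1 (23.1 RPKM) stood above VMP1 (19.1 RPKM) and ATG10 (17.6 RPKM) above TAX1BP1 (17.0 RPKM) in control, while VMP1 (26.2 RPKM) stood above ATG101 (24.1 RPKM) with 25(OH)D. BECN1, at 10.7 RPKM, lay below NBR1 without overlap. Of the 39 pairs of neighbours in this order, 33 overlapped, and the other gaps lay between GABARAPL2 and ATG9A, PIK3C3 and ATG4C, and ULK2 and GABARAPL1. The ULK kinases were low in level beside their partner ATG101, with ULK1 at 2.69 RPKM and ULK2 at 0.936 RPKM.

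Some members share exon bases with other listed genes. The libraries were made with a kit that keeps strand, but whether the counting used strand is not given in the sources used here, so it is not known whether reads of partners on opposite strands were separated. Of the 40 members, 15 shared none, and 4 shared bases with a gene on the same strand, among them ATG9A, of whose exon bases 34.9% lie in ABCB6, and GABARAP, with 30.5% in CTD-2545G14.7. Among the 13 members that passed the test, 8 shared bases with a partner. ATG10 shared 374 bases (6.86%) with RPS23, a ribosomal protein gene that also fell (log2 fold change -0.39, edgeR adjusted p = 1.12e-04). WIPI1 shared 828 bases (24.3%) with ARSG, which also rose (log2 fold change 0.40, edgeR adjusted p = 5e-05), and 127 bases with RP11-120M18.2, a gene with at least 32787 counts in every library (log2 fold change 0.18). ATG16L2 shared 680 bases (7.89%) with FCHSD2, which also rose (log2 fold change 0.41, edgeR adjusted p = 2.38e-05). ATG4D shared 341 bases (15.0%) with KRI1, which had at least 10513 counts in every library and fell (log2 fold change -0.24, edgeR adjusted p = 6.31e-04). Among members that did not pass the test, partners that did were FBXO31 of MAP1LC3B (log2 fold change 0.46), PRAF2 of WDR45 (0.31, on the same strand) and MGAT4B of SQSTM1 (-0.17), with edgeR adjusted p = 0.00263, 0.0226 and 0.0333. The part of these partners in the values above was not tested. VMP1, BECN1, TAX1BP1 and OPTN had partners that either did not pass the test or held at most 4 counts, and ULK1, AMBRA1, ATG14, ATG4A and CALCOCO2 shared no bases.

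The other genes around autophagy were taken as 5 lists of 93 genes, of which 89 were tested, 24 rose and 11 fell (39.3% of those tested, beside 33.8% of all genes). Their median log2 fold change was -0.00106. Among other factors of autophagosome formation, 7 of 18 rose and 1 fell. TP53INP2, which binds ATG8 proteins and helps to bring them out of the nucleus, rose from 15.8 ± 1.15 to 21.0 ± 0.838 CPM (log2 fold change 0.40, edgeR adjusted p = 0.00102). TBC1D14, which regulates the supply of ATG9 vesicles, fell from 57.6 ± 3.52 to 44.8 ± 1.32 CPM (log2 fold change -0.36, edgeR adjusted p = 2.25e-04). TMEM41B, which acts with VMP1 as a scramblase of the endoplasmic reticulum, also rose (log2 fold change 0.37, edgeR adjusted p = 0.0253) and was singled out after its values were seen. Its groups overlapped, at 9.92, 11.1 and 9.29 CPM in control and 10.8, 14.9 and 13.5 CPM in 25(OH)D libraries. Among factors of fusion with lysosomes, 5 of 18 rose and 1 fell, with VAMP8, a SNARE of the lysosomal side, up by a log2 fold change of 0.42 (edgeR adjusted p = 5.73e-05) and VPS39, a subunit of the HOPS tethering complex, down by one of -0.18 (edgeR adjusted p = 0.0161). The call of VPS39 was lost without 25(OH)D replicates 1 or 3 (adjusted p = 0.0578 or 0.0754) and without control replicates 1 or 2 (adjusted p = 0.0678 or 0.0857).

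Among the nutrient and energy kinases and their regulators, 3 of 20 rose and 4 fell. PRKAA1, the catalytic alpha-1 subunit of AMPK, a kinase that activates ULK1, held 35.7, 36.0 and 34.2 CPM in control against 59.1, 63.6 and 58.5 CPM in 25(OH)D libraries, a rise of 1.71-fold (log2 fold change 0.78, SE 0.0564, edgeR adjusted p = 8.7e-08). PRKAA2, the other catalytic subunit, fell (log2 fold change -0.24, edgeR adjusted p = 0.0397), and PRKAB2 rose (0.26, edgeR adjusted p = 0.0254). The remaining AMPK subunits listed, PRKAB1, PRKAG1 and PRKAG2, did not pass the test. SESN2, a leucine sensor that restrains mTORC1, held 23.9, 21.4 and 22.1 CPM in control against 13.3, 13.8 and 10.6 CPM in 25(OH)D libraries (log2 fold change -0.84, SE 0.0971, edgeR adjusted p = 1.03e-05). PRKAA1 and SESN2 did not overlap between groups, and both estimates were larger in size than those of the 13 members that passed the test. Of the TFEB family and its regulators, 1 of 14 rose and 1 fell, namely FNIP2 (log2 fold change 0.44, edgeR adjusted p = 2.23e-04) and its partner FLCN (log2 fold change -0.35, edgeR adjusted p = 0.00771). Among receptors of organelle autophagy and mitophagy, 8 of 19 rose and 4 fell, so that 63.2% passed the test, beside 33.8% of all genes. The shares in the other lists were 44.4% (autophagosome formation), 33.3% (fusion with lysosomes), 35.0% (nutrients and energy) and 14.3% (TFEB family). FKBP8, a mitophagy receptor, held 205, 202 and 240.1 CPM in control against 347, 325 and 390.1 CPM in 25(OH)D libraries (log2 fold change 0.71, edgeR adjusted p = 1.86e-06), and RETREG1, a receptor of endoplasmic reticulum sheets, fell from 6.28 ± 0.234 to 3.77 ± 0.115 CPM (log2 fold change -0.74, edgeR adjusted p = 3.37e-04).

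**Figure D4:**
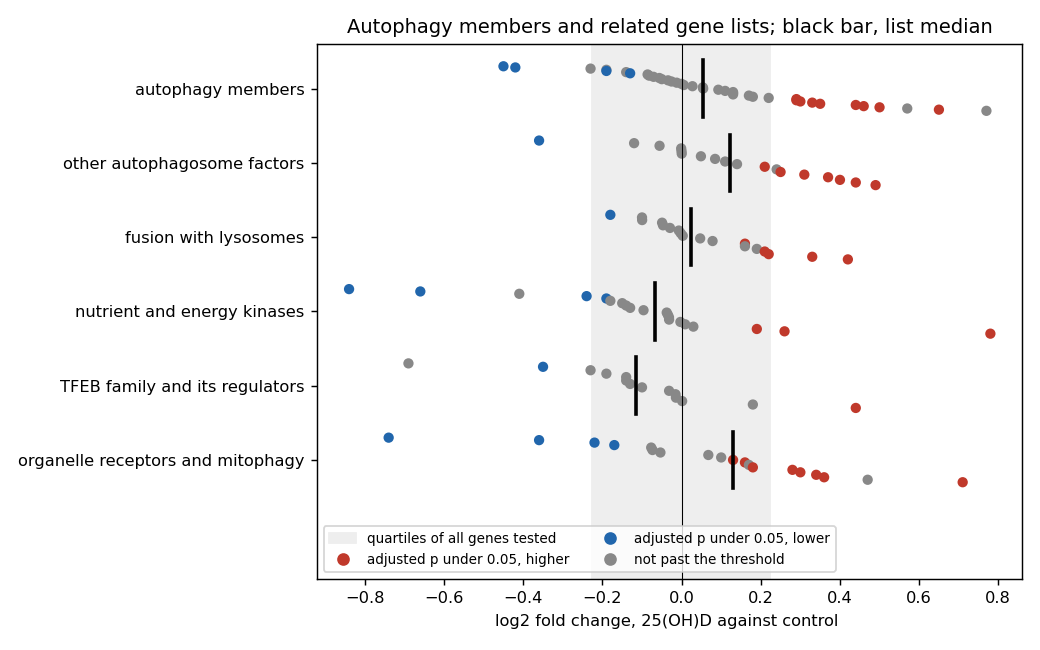
Log2 fold change of every tested gene in the autophagy set and in 5 related lists, 25(OH)D against control, with the list median as a black bar and the quartiles of all genes tested, -0.226 to 0.223, as a grey band. Among related genes that passed the test, PRKAA1, FKBP8, SESN2, RETREG1 and DEPTOR (-0.66) lie further from 0 than any of the 13 called autophagy genes. RRAGD (-0.69), which did not pass the test, does so too.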

How the data were processed

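Messenger RNA of MDA-MB-453 cells was sequenced in 6 libraries, 3 a group, and each library was placed in its group and given its replicate number from the sample labels. The authors deposited raw counts of reads for each gene, not normalized, and RPKM values, which equalled the count divided by gene length and library total (largest relative difference 5.1e-15). The gene length column belongs to no library and was used as the authors' value. The submitters' processing notes name Trimmomatic 0.36, featureCounts, Subread 1.5.1, edgeR 3.12.1 and GRCh38. The library kit is stranded. The aligner's settings, the strand setting of the counting and the annotation release are not given in the sources used here.

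Counts were tested in R 4.3.3 with edgeR 4.0.16 (TMM normalization, filterByExpr with a minimum count of 10, quasi-likelihood test without covariates), and p-values were adjusted by Benjamini-Hochberg over 18183 genes. CPM use TMM-scaled library sizes. The biological coefficient of variation was 0.0788. Replicates within a group differed by more than sampling noise (chi-square per gene at least 4.01), so each counted once. The steps were tested on simulated data. Limma 3.58.1 and DESeq2 1.42.0 served the alternatives, scipy 1.17.1 the exact tests, and matplotlib 3.10.9 the figures, run from Python 3.11.15 with pandas 2.3.3 and numpy 2.4.6. Alternatives were other scalings and filters, DESeq2, RPKM on a log2 scale with 1 or 0.1 added, a replicate block and the omission of each library. The members, the further lists and the tests were chosen with earlier results of these data known. The text names all members, in each further list the gene with the smallest p in each direction, and any listed gene past the fold limit. The rule also covers genes sharing exon bases with a named gene. Of the partners of members, the text prints each that itself passed the test. It also prints ABCB6 and CTD-2545G14.7, which share the largest percentages of a member's exon bases on the same strand, and CTD-2545G14.6, the other partner of GABARAP. TMEM41B, the AMPK subunits other than PRKAA1, DEPTOR and RRAGD lie outside the rule. Gene positions come from the deposited table, and promoters from RefSeq (GRCh38.p14). A further marker of the line is not reported here. A floor of 3 counts was used, which covers counting error only.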

Additional observations from a re-analysis of the deposited data

How the results depend on the processing

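The 15 alternatives gave 735 values for members and for further genes named by the rule. Of these, 668 kept their direction and their side of the threshold, 31 lost the call, 11 gained one and 25 changed sign. Beside 9 members that rose, 4 that fell and 35 genes called in the further lists, library sizes alone gave 8 that fell, upper-quartile factors gave 7 that fell, and log2(RPKM + 1) without a filter gave 5 that rose and 21 calls in the further lists. Without the low-count filter, 1 member passed the fold limits, MAP1LC3A, which held 22 counts in 1 library and at most 7 in any other. Over the genes tested in each setting, 33.8% passed as reported, 35.0% with library sizes alone and 34.7% with upper-quartile factors. The share was 18.9% without the low-count filter (where 10 members rose and 4 fell). It was 13.2% with log2(RPKM + 1) without a filter (where 5 rose and 3 fell). Both unfiltered shares also count genes that the filter removes, so their denominator differs from that of the 33.8%. They are therefore no background for the members comparable to the 33.8%. How much of the lower shares comes from those added genes was not tested, nor was the cause of the other changes. Leaving out each library in turn gave 8 to 9 members that rose, 2 to 4 that fell, 28 to 33 calls in the further lists, and a difference in the LC3 share of -0.439 to 1.15 percentage points.

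The changes of sign all fell in members that did not pass the test. ULK2 turned to a log2 fold change of 0.00646 with DESeq2, 0.00581 with RLE factors and 0.00297 without the filter. ATG2A and ATG12 turned to -0.0165 and -0.0385 with library sizes alone, to -0.0142 and -0.0361 with upper-quartile factors, to -0.0168 and -0.0362 with log2(RPKM + 0.1), and to -0.0118 and -0.0286 with log2(RPKM + 1), with or without the filter. Leaving out each library in turn gave ranges that crossed 0 for ULK2 (-0.136 to 0.116), ATG101 (-0.039 to 0.0284), RB1CC1 (-0.0569 to 0.0164), ATG7 (-0.103 to 0.0634), ATG12 (-0.0313 to 0.0615) and WIPI2 (-0.0994 to 0.00703).

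With the replicate number as a block, 8 members rose, 4 fell and 32 genes of the further lists passed. Libraries with the same number did not deviate together (correlations of -0.0721, -0.012 and -0.046 over genes), and no library correlated best with its own number. With 3 libraries a group, these correlations cannot show whether libraries of equal number were handled together, which the sources do not say. Depth limited ATG9B, GABARAPL1 and MAP1LC3A, which held at most 48 counts in any library, and 3 libraries a group allow no exact p under 0.1.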
